A study of Mus musculus with 4 samples.

Results

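The 10 genes that coat the hepatic lipid droplet or that make and break down its triglyceride were followed in the livers of 4 mice, and all 10 were found by symbol among the 46603 Ensembl identifiers of the count table. They were Plin2, Plin4 and Plin5 of the perilipin family, Cidea and Cidec of the CIDE family, the lipases Pnpla2 and Pnpla3, the Pnpla2 inhibitor G0s2, the triglyceride synthase Dgat2, and the droplet-bound enzyme Hsd17b13. All 4 animals were male HuRflox/flox mice on the C57BL/6 J background. The study itself states that mice of both sexes were used in its animal experiments. They received the same Western diet, with 42% of its calories from fat and 0.1% cholesterol, and drinking water holding 23.1 g/L fructose and 18.9 g/L glucose, for 4 weeks. The 2 mice labelled HuR hKO (mice 3 and 4) had been injected with AAV8-TBGP-Cre, a virus that drives Cre recombinase from a hepatocyte promoter, so that the other cells of the liver keep their HuR gene, and the 2 mice labelled Control (mice 1 and 2) had received AAV8-TBGP-GFP. The age of the mice was not stated, and no group on a normal diet is analysed here, so the comparison is between both genotypes under the same diet. HuR is an RNA binding protein that attaches to AU-rich stretches of mRNA, and the question addressed here is whether the mRNA levels of the droplet genes differed between the genotypes.

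A lipid droplet is a core of triglyceride and cholesteryl ester inside a phospholipid monolayer. Perilipins cover the monolayer and limit the access of lipases, CIDE proteins sit at the contact between droplets and let the smaller one empty into the larger one, and Pnpla2 (ATGL) removes the first fatty acid from triglyceride once its activator Abhd5 is released. G0s2 blocks Pnpla2, and Dgat2 adds the last fatty acid to diacylglycerol. In a fatty liver the coat proteins accumulate together with the lipid they surround.

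Over the 10 genes, the levels in the libraries labelled HuR hKO lay close to those of the control libraries. Hsd17b13 and Dgat2 were the 2 genes whose libraries labelled HuR hKO both lay above both control libraries, with mean levels 1.30 and 1.09 times control, and the groups overlapped for the other 8. At an adjusted p-value under 0.05 in edgeR's quasi-likelihood test, 0 of the 10 genes were called, beside 0.0231% of the 13001 genes tested. At an unadjusted p-value under 0.05 there was 1 gene, Hsd17b13, beside 7.43% of all genes tested. At the threshold stated by the study for its RNA-seq, a fold change of at least 1.8 with an unadjusted p-value under 0.05, 0 of the 10 genes passed, beside 2.12% of all genes. By other tools, 0 of the 10 were called at an adjusted p-value under 0.05 with the DESeq2 Wald test, edgeR's exact test or limma-voom. Groups that did not overlap were found for 19.3% of all genes with the libraries labelled HuR hKO higher and for 18.8% with them lower, so 2 of 10 is near the background share. The fitted level was higher for 6 of the 10 and lower for 4, beside 50.3% of all genes higher. Without any scaling for library size all 10 were higher, while the median log2 fold change over all genes tested also moved to 0.31. The median log2 fold change of the 10 was 0.03, beside 0.00197 over all genes tested.

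The libraries held between 13032095 and 19715577 counts, and mouse 4 was the deepest. Counts were scaled with edgeR's TMM factors and are given as CPM, the usual unit of a gene's counts relative to the scaled total of its library. Each pair of mice differed by more than counting noise, since the chi-square of their counts, divided by its degrees of freedom, was at least 23.1, and each was used as 1 replicate. Elavl1, which encodes HuR, had 28.4 and 25.9 CPM in the control libraries and 37.7 and 34.4 CPM in those labelled HuR hKO. Both of the latter were above both control libraries. The difference was 0.41 on the log2 scale with a standard error (SE) of 0.135 (unadjusted p = 0.016 and adjusted p = 0.545, edgeR). The interval of the fold, not adjusted for the number of genes, ran from 1.07 to 1.65. The Elavl1 count covers the whole gene, so exons outside the deleted part are counted too and the deleted part was not examined on its own. The exons of Elavl1 overlap those of Ccl25 on the opposite strand by 204 bases. Since the count of the targeted gene was not lower, the second group is called "the libraries labelled HuR hKO" throughout, and each direction given is that of the labels. For a single ratio, the smallest two-sided p-value of an exact permutation over 2 and 2 mice is 0.333.

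The hepatocyte gene Alb stood between 40983 and 45366 CPM in every liver. Whole liver was sequenced, so fewer cells of a type and less RNA per cell cannot be told apart. Since Plin1, Plin4, Cidea and Cidec are also adipocyte genes, fat tissue markers were examined. Of the 8 markers listed, 6 (Adipoq, Lep, Retn, Trarg1, Ucp1 and Plin1) were below the filter on low counts, with at most 14 counts in a library, and they summed to 10, 6, 9 and 53 counts in mice 1, 2, 3 and 4, with Ucp1 at 0 in all 4. Cfd, also made by other liver cells, and Adrb3 overlapped between the groups, and the whole list summed to between 71.7 and 138.6 CPM, highest in control mouse 2. The 8 endothelial markers were all higher in fitted level (median log2 fold change 0.21, summed level between 220.2 and 263.0 CPM in the control libraries and between 261.9 and 292.0 CPM in the others), and 7 of 8 stellate cell markers were higher (median 0.21, between 170.8 and 172.6 CPM against between 181.9 and 223.8 CPM). Of 8 macrophage markers 5 were higher (median 0.15, between 167.0 and 173.0 CPM against between 179.7 and 195.1 CPM). Adgre1 (log2 fold change -0.20), Marco (-0.92) and Csf1r (-0.009) were lower. The macrophage rise depended on which liver was dropped. Dropping control mouse 1 shrank it to 0.016, and dropping mouse 3 took it to -0.002. In each of these fits 4 of the 8 markers were higher. Dropping control mouse 2 or mouse 4 gave 0.19 or 0.27 instead. The 8 hepatocyte markers had a median of -0.02, and the 4 cholangiocyte markers tested had one of -0.23, with a summed level highest in control mouse 1 at 52.8 CPM. Without control mouse 1 their median was 0.63, with 3 of the 4 higher. Without control mouse 2, 4 of the 8 endothelial and 5 of the 8 stellate cell markers were higher, and without scaling for library size the hepatocyte and cholangiocyte medians were above 0 (0.31 and 0.11). The part of any of these cells in the results below was not tested.

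The levels of the 10 genes differed widely from each other. Per kilobase of exon, Dgat2 was the highest with a mean over the 4 mice of 237.3 CPM per kb and Cidea the lowest with 1.15 CPM per kb, a range of 206.8-fold. Dgat2, G0s2 (222.6 CPM per kb), Plin2 (176.2) and Hsd17b13 (172.7) formed an upper set, each above at least 97.56% of the 11997 tested protein-coding genes, and within it each neighbour overlapped the next over the 4 mice. Hsd17b13 was above Pnpla2 (28.5 CPM per kb) in all 4 mice without overlap. Pnpla2 was in turn above Plin5 (18.5), and Plin5 and Cidec (17.5) overlapped. Plin4 (4.58), Pnpla3 (2.24) and Cidea followed, each apart from the next, and Cidea was above 26.4% of the protein-coding genes.

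**Figure D1:**
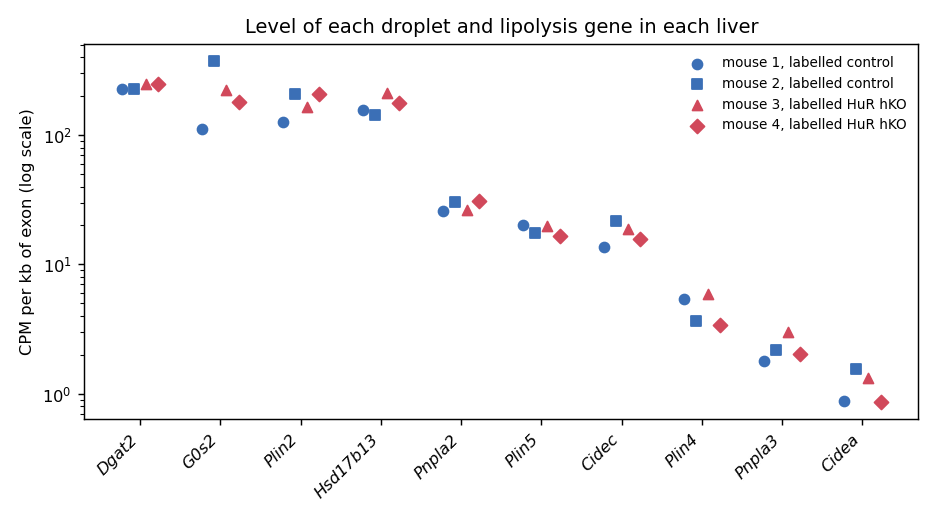
Level of each of the 10 genes in CPM per kilobase of exon, on a log scale, with 1 symbol for each mouse and the genes ordered by their mean. Dgat2, G0s2, Plin2 and Hsd17b13 stand above 100 CPM per kb in every mouse, and Cidea stands near 1.

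Plin2, the coat protein of nearly all hepatocyte droplets, is a minus-strand gene of chromosome 4 (86648386 to 86670060 in GRCm38, GENCODE M21). Its level was 442.7 and 731.0 CPM in the control livers and 575.1 and 726.3 CPM in those labelled HuR hKO. Control mouse 1 was the lowest of the 4, and mouse 4 reached the level of control mouse 2. The means were 586.9 ± 203.8 CPM (SD, n = 2) and 650.7 ± 107.0 CPM (SD, n = 2), the log2 fold change was 0.15 (SE 0.241, adjusted p = 0.915, edgeR), and the 95% interval of the fold ran from 0.756 to 1.63. Without control mouse 1 the log2 fold change was -0.18, and without mouse 4 it was -0.03.

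Plin5, which links droplets to mitochondria, and Plin4, a long perilipin that coats small nascent droplets, lie side by side on the minus strand of chromosome 17, with 1797 bases between them. Plin4 runs from 56100591 to 56109803, and Plin5 from 56111601 to 56117596. Plin4 had 31.4 and 21.1 CPM in the control libraries and 33.8 and 19.5 CPM in those labelled HuR hKO. Plin5 had 42.1 and 36.4 CPM in the control libraries and 41.5 and 34.3 CPM in the others. For both genes mice 1 and 3 were above mice 2 and 4, so each group held 1 higher and 1 lower liver. The log2 fold changes were 0.02 for Plin4 (SE 0.274) and -0.05 for Plin5 (SE 0.153), with adjusted p-values of 0.992 and 0.963 from edgeR. The 95% interval of the fold ran from 0.655 to 1.57 for Plin4 and from 0.758 to 1.23 for Plin5. The exons of Plin4 overlap those of Hdgfl2 on the opposite strand by 17 bases.

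Plin2 made up most of the perilipin counts per kilobase, with 77.7% and 86.3% in the control livers and 80.0% and 85.6% in the livers labelled HuR hKO. Plin5 made up 12.4% and 7.23% in the control livers and 9.71% and 6.81% in the others. Its share was highest where that of Plin2 was lowest, in control mouse 1. The shares are parts of the same total, so a lower share of Plin2 in itself raises the others. Plin1, the perilipin of white fat cells, made up at most 0.0425%. Plin3 (TIP47), which is not among the 10 genes, is the perilipin that moves between cytosol and droplet. It had 42.5 ± 3.63 CPM in the control libraries and 57.1 ± 1.06 CPM in the others (SD, n = 2 each), a log2 fold change of 0.43 (SE 0.131, unadjusted p = 0.0114 and adjusted p = 0.51, edgeR), with both libraries labelled HuR hKO above both control libraries. Its share of the family overlapped between the groups, at 6.49% and 4.93% in the control livers and 7.46% and 6.16% in the others.

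**Figure D2:**
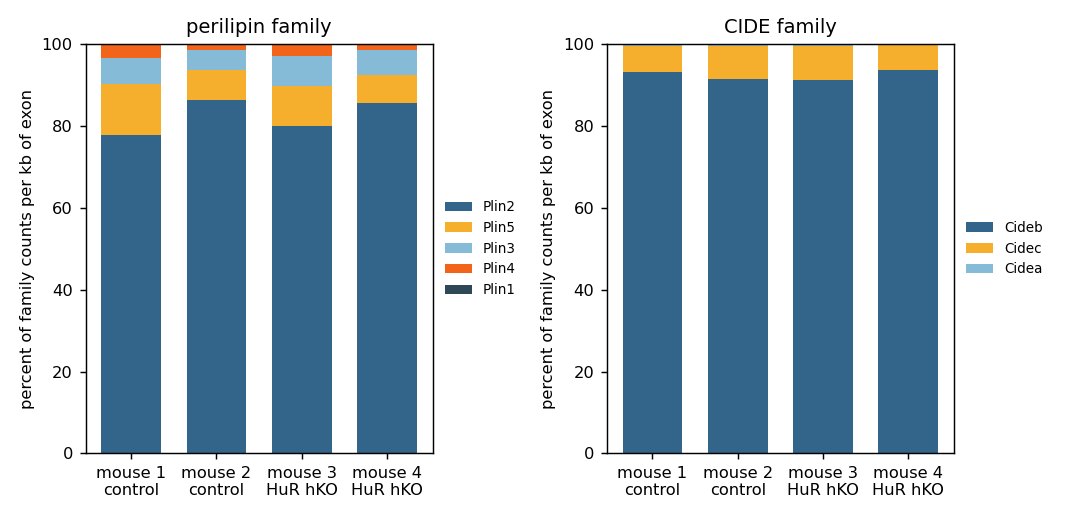
Share of each gene in the summed counts per kilobase of exon of the perilipin family (left) and of the CIDE family (right), in percent, with 1 bar for each mouse. Plin2 takes between 77.7% and 86.3% of its family and Cideb between 91.3% and 93.6% of its family, and the groups overlap for each gene drawn.

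Cidec (FSP27), which enlarges droplets by fusion and is induced in fatty liver, lies on chromosome 6 from 113424634 to 113435760 on the minus strand. It had 25.5 and 40.2 CPM in the control libraries and 34.9 and 29.3 CPM in those labelled HuR hKO, so both of the latter fell between the control mice. The log2 fold change was -0.04 (SE 0.214, adjusted p = 0.982, edgeR), with a 95% interval of the fold from 0.694 to 1.37. Cidea, the CIDE protein of brown fat that appears in steatotic liver, was counted 13 and 23 times in the control mice and 21 and 18 times in the others. The exact 95% Poisson interval of these counts ran from 6.92 to 22.2 in control mouse 1 and from 14.6 to 34.5 in control mouse 2, intervals that cover counting error only. Its log2 fold change was -0.17 (SE 0.485, adjusted p = 0.961, edgeR), with a 95% interval of the fold from 0.41 to 1.92.

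The CIDE gene with most counts in these livers was Cideb, which supports the loading of lipid into VLDL and is not among the 10 genes. It had 335.2 ± 55.7 CPM in the control libraries and 337.2 ± 35.6 CPM in the others (SD, n = 2 each), a log2 fold change of 0.00906 (adjusted p = 0.994, edgeR). Per kilobase it took between 91.3% and 93.6% of the family in the 4 mice, Cidec between 6.07% and 8.18%, and Cidea between 0.329% and 0.572%.

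Pnpla2 lies on chromosome 7 from 141455198 to 141460743 on the plus strand. It had 78.8 and 91.5 CPM in the control libraries and 80.2 and 94.1 CPM in those labelled HuR hKO. Mice 2 and 4 were above mice 1 and 3, which is the reverse of the order of Plin4 and Plin5. The log2 fold change was 0.03 (SE 0.144, adjusted p = 0.972, edgeR), and the 95% interval of the fold, from 0.814 to 1.29, does not reach the 1.8-fold of the study's threshold. Its activator Abhd5 (CGI-58) had 28.3 ± 1.64 CPM in the control libraries and 25.4 ± 1.33 CPM in the others (SD, n = 2 each, log2 fold change -0.16, adjusted p = 0.838, edgeR).

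G0s2, on chromosome 1 from 193272161 to 193273217, was the most variable of the 10 genes. It had 96.5 and 326.0 CPM in the control libraries and 195.3 and 157.9 CPM in those labelled HuR hKO. The 2 control mice differed by 3.38-fold and enclosed both of the others, which differed by 1.24-fold. Its log2 fold change was -0.26 (SE 0.447, adjusted p = 0.925, edgeR), and the 95% interval of the fold ran from 0.41 to 1.70. Its sign rested on single mice. The log2 fold change was -0.90 without control mouse 1 and 0.87 without control mouse 2. Each of these fits holds a single control mouse, so the spread between the control mice is left out of it. The ratio of G0s2 to its target Pnpla2, per kilobase and so free of the library scaling, was 4.25 and 12.4 in the control livers and 8.45 and 5.82 in the others (two-sided exact permutation p = 1.0 for the difference of means).

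Pnpla3, a droplet-bound relative of Pnpla2 that is induced by sugar feeding, lies on chromosome 15 from 84167837 to 84187236. It was counted 37 and 45 times in the control libraries and 66 and 59 times in those labelled HuR hKO. After scaling these were 2.78 and 3.36 CPM against 4.60 and 3.13 CPM, so mouse 3 stood above the others and mouse 4 lay between the control mice. For Pnpla3 the log2 fold change was 0.32 (SE 0.31, adjusted p = 0.85, edgeR), with a 95% interval of the fold from 0.762 to 2.05, and it was 0.01 without mouse 3. Its exons share 105 bases with the transcript Gm49513 on the same strand. Pnpla2 had between 8.92 and 15.4 times the counts of Pnpla3 per kilobase, lowest in mouse 3.

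Dgat2 is a minus-strand gene of chromosome 7 (99153658 to 99182719). Its level was 700.2 and 697.4 CPM in the control libraries and 760.6 and 767.7 CPM in those labelled HuR hKO. Mice of the same label were almost equal, with 1.00-fold between the control mice and 1.01-fold between the others. Both libraries labelled HuR hKO were higher, with means of 764.2 ± 5.02 CPM and 698.8 ± 1.98 CPM (SD, n = 2 each). The fit gave a log2 fold change of 0.13 (SE 0.141, adjusted p = 0.872, edgeR), where the SE carries the spread that edgeR shares between genes and is therefore wider than the spread of these 4 values. The 95% interval of the fold ran from 0.874 to 1.37. Dgat1, the second enzyme of this step, was far lower, and Dgat2 had 26.6 and 22.4 times its counts per kilobase in the control livers and 33.5 and 26.6 times in the livers labelled HuR hKO (two-sided exact permutation p = 0.333, the smallest this design allows).

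Hsd17b13, a hepatocyte enzyme that binds droplets and is raised in human fatty liver, is a minus-strand gene of chromosome 5 (103955440 to 103977410). Its level was 337.3 and 311.2 CPM in the control libraries and 456.0 and 385.6 CPM in those labelled HuR hKO. Both of the latter were above both control livers, and mouse 3 was the highest. The means were 324.2 ± 18.5 CPM and 420.8 ± 49.7 CPM (SD, n = 2 each). The log2 fold change was 0.38 (SE 0.148), with an unadjusted p-value of 0.034 and an adjusted p = 0.618 over all genes tested by edgeR, so it did not pass. The 95% interval of the fold, not adjusted for the number of genes, ran from 1.03 to 1.64. It lay between 0.23 and 0.49 when each mouse was left out in turn and between 0.36 and 0.67 over the other settings. Hsd17b11, its relative on the droplet, had a log2 fold change of 0.13, and the ratio of Hsd17b13 to Hsd17b11 per kilobase overlapped between the groups, at 1.61 and 1.44 in the control livers and 2.28 and 1.45 in the others.

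**Figure D3:**
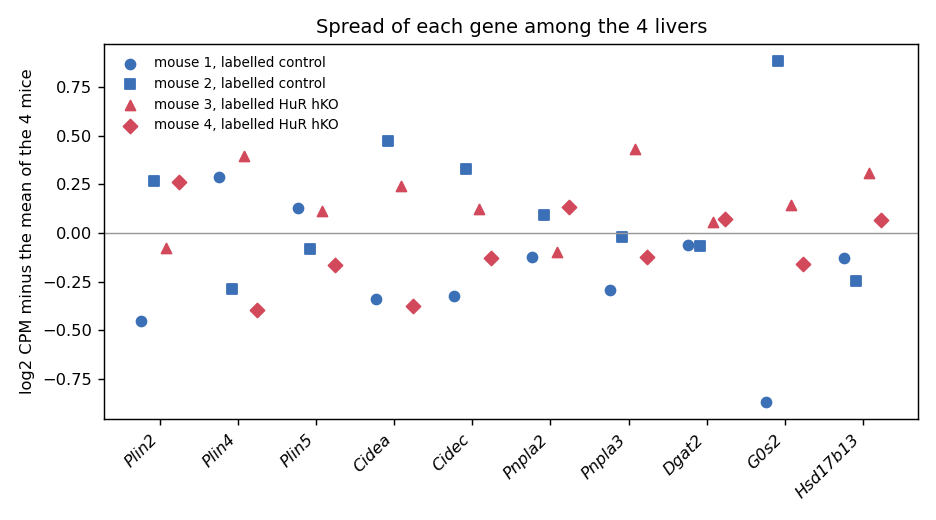
Log2 CPM of each gene in each mouse, as the difference from the mean of the 4 mice. The groups are apart for Dgat2 and Hsd17b13, and the 2 control mice lie at opposite ends for G0s2, Cidec and Plin2.

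**Figure D4:**
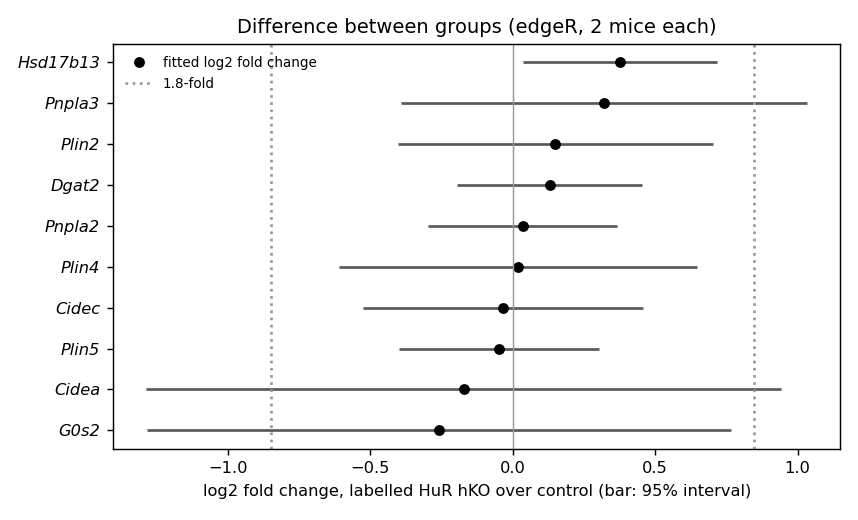
Fitted log2 fold change of each gene, libraries labelled HuR hKO over control, with its 95% interval from edgeR (2 mice in each group) and dotted lines at 1.8-fold. The interval of Hsd17b13 alone lies above 0, from 0.04 to 0.72 and not adjusted for the number of genes, and those of Cidea, G0s2 and Pnpla3 cross a dotted line.

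For 7 of the 10 genes, the 2 control mice differed from each other by more than the group means did, and for 8 of the 10 this held of the 2 mice labelled HuR hKO. The median size of the log2 fold change was 0.139 over the 10 genes, beside 0.164 over all genes tested. Control mouse 1 had the lowest level of 5 of the genes (Plin2, Cidec, Pnpla2, Pnpla3 and G0s2). Control mouse 2 had the highest level of 4 (Plin2, Cidea, Cidec and G0s2). None of these counts of genes was made over all genes tested, so they are not shown to be particular to the 10 genes.

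Promoter sequences are shown for the gene with the smallest p-value, Hsd17b13, for Plin2, the main coat gene, and for the neighbouring genes Plin4 and Plin5. Each run holds 250 bases before and 50 after the RefSeq start site (GRCm38.p6), 5′ to 3′ on the minus strand, on which all 4 genes lie. Capitals mark matches, on either strand, to the nuclear receptor half-site AGGTCA, the E-box CACGTG, the GC box GGGCGG or the CCAAT box. The runs lie at chr5:103977339-103977638, chr4:86670010-86670309, chr17:56109733-56110032 and chr17:56117499-56117798.
Hsd17b13: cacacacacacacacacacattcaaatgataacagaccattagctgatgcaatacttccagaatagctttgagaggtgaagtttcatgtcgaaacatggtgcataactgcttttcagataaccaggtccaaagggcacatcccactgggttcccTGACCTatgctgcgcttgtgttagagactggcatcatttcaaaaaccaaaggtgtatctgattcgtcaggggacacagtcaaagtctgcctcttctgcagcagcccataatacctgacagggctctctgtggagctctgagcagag
Plin2: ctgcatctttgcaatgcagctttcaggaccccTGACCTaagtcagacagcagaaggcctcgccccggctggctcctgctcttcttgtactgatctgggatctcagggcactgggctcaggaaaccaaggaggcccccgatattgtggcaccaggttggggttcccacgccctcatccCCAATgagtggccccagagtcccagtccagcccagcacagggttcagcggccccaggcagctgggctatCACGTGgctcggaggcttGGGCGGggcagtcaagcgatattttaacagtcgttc
Plin4: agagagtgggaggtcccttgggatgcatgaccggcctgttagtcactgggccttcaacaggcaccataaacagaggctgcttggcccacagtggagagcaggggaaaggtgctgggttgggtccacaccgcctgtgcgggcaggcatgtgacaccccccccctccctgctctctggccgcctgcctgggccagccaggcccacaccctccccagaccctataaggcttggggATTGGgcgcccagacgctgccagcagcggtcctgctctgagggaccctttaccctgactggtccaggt
Plin5: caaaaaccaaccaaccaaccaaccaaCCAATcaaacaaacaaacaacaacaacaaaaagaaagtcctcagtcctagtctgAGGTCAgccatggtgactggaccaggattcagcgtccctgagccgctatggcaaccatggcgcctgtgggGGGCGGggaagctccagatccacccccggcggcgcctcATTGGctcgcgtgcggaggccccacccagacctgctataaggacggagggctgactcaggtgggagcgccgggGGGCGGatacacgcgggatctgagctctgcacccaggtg

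Of the 10 genes, 8 were matched in the RefSeq promoter table, and Cidea and Dgat2 were not. The half-site AGGTCA was found in the windows of Hsd17b13, Plin2 and Plin5, 3 of these 8 genes, beside 16.3% of all 32851 promoter windows. The E-box was found in Plin2 alone, beside 7.15% of all windows. The GC box was found for 5 of the 8 genes (35.7% of all windows) and the CCAAT box for 4 (37.4%). The DR1 element bound by PPAR with RXR was searched only as an exact repeat of that half-site with 1 base between the copies. This exact repeat and the sterol element TCACNCCAC were found in 0 of the 8, beside 0.0396% and 1.24% of all windows. With shares so small, 0 of 8 could hardly have come out otherwise, and nothing is drawn from it. Plin5 has a second listed start, whose window was searched as well, and so has Cidec. A gene was counted if any of its windows matched, while the shares beside it are of single windows. Such matches describe the letters of these windows and no binding was measured.

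Since HuR attaches to AU-rich mRNA, the 3′ UTR of 1 annotated transcript of each gene was searched for the pentamer ATTTA. It was present in 3 of the 10 genes, Pnpla2, Dgat2 and Hsd17b13, with at most 2 copies, beside 65.9% of the 11836 tested genes with an annotated 3′ UTR. The 3′ UTRs of the 10 were shorter, with a median of 445 bases beside 980.5 bases, and had fewer A and T, with a median of 46.4% beside 55.4%. That of Cidec was annotated with 5 bases only in this transcript. The sites are printed with 10 bases on either side and the pentamer in capitals, as DNA on the strand of the gene (GRCm38). The longer form TATTTAT occurred in Pnpla2 and at the second site of Dgat2, beside 27.3% of the tested genes. None of the 3 genes differed at an adjusted p-value under 0.05, and no binding was measured.
Pnpla2, chr7:141460036-141460060: gtgaagaattATTTAtttttgccaa
Dgat2, chr7:99154419-99154443: tctgtgggttATTTAaaagaaatta
Dgat2, chr7:99154304-99154328: ggaggctgatATTTAtgggccttgg
Hsd17b13, chr5:103955946-103955970: ctgccaaaatATTTAcaacacttaa

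Around these genes, 5 lists of the same pathway held 97 genes in the table, of which 94 were tested. In edgeR's quasi-likelihood test 0 passed an adjusted p-value under 0.05, while 12 had an unadjusted p-value under 0.05 (8 higher and 4 lower, 12.8% beside 7.43% of all genes). The lists were chosen with earlier results of these data known, so the higher share is a description and no evidence about the pathway. With limma-voom 0 of the 94 passed as well. The DESeq2 Wald test called 4 of them (Lpl, Ces3a, Ces3b and Vnn1), and edgeR's exact test called 3 (Lpl, Cyp4a14 and Vnn1). With no filter on low counts 4 were called (Lpl, Ces3b, Cyp4a14 and Vnn1), and with no scaling for library size also 4 (Lpl, Cyp4a14, Fabp4 and Mogat1). Leaving out control mouse 1 called 3 (Lpl, Cyp4a14 and Lpin1), leaving out control mouse 2 called 2 (Lpl and Lpin1), and leaving out mouse 3 or mouse 4 called 0. A fit with a mouse left out takes the spread of that group from the other group, so its calls do not measure that spread. All directions in these lists are those of the TMM scaling and of the labels. Among 21 tested droplet proteins, 13 were higher and 8 lower (median log2 fold change 0.01), and Plin3 alone had an unadjusted p-value under 0.05. Mettl7b, a droplet methyltransferase, and Cideb had the highest levels of this list per kilobase, and Mettl7b had 635.8 ± 91.0 CPM in the control libraries and 712.6 ± 96.9 CPM in the others (SD, n = 2 each, adjusted p = 0.866, edgeR).

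Among 16 lipases and cofactors, 8 were higher and 8 lower (median -0.02). Lpl, the lipase that clears triglyceride from lipoproteins, had 21.6 and 27.5 CPM in the control libraries and 66.1 and 52.4 CPM in those labelled HuR hKO. The fold change on the log2 scale was 1.27 (SE 0.176, adjusted p = 0.092, edgeR), and it was the gene of this list past the study's threshold. Its adjusted p-value ran from 2.37e-06 (edgeR's exact test) to 0.325 (without mouse 3) over the alternatives. The liver lipases Ces3a (log2 fold change -0.56, SE 0.16), Ces3b (-0.71, 0.175) and Aadac (-0.36, 0.134) are enzymes of the endoplasmic reticulum. Each was lower in both libraries labelled HuR hKO than in both control libraries. Their adjusted p-values by edgeR's quasi-likelihood test were 0.45, 0.36 and 0.591. Ces3a and Ces3b had adjusted p-values of 0.0405 and 0.0178 by the DESeq2 Wald test, and Ces3b had one of 0.0235 with no filter on low counts. The values of Ces3a and Ces3b were 0.179 and 0.0626 by edgeR's exact test, and 0.438 and 0.358 by limma-voom. Ces1d, with Ces3a the highest of this list per kilobase, had 785.6 ± 165.0 CPM and 685.9 ± 20.1 CPM (SD, n = 2 each, adjusted p = 0.845, edgeR). The Ces genes are paralogs, and how the counting treated reads that could match several of them is not given in the sources used here, so their counts are uncertain. Without scaling for library size Ces3a (-0.23), Ces3b (-0.41) and Aadac (-0.04) were lower and Ces1d (0.11) was higher.

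Of 16 tested genes of triglyceride synthesis, 11 were higher and 5 lower (median 0.12). Gpam, the mitochondrial enzyme of the first step, had 69.3 ± 10.1 CPM in the control libraries and 88.6 ± 4.49 CPM in the others (SD, n = 2 each), a log2 fold change of 0.35 (SE 0.144, unadjusted p = 0.0391 and adjusted p = 0.633, edgeR). Gpat4 (log2 fold change -0.16) and Agpat2 (-0.12), the highest of this list per kilobase, had adjusted p-values by edgeR of 0.839 and 0.91, and both were above 0 without scaling for library size (0.16 and 0.21).

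Of 20 transcriptional regulators of these genes, 11 were higher and 9 lower (median 0.07). Ppara, the fatty acid sensor that induces Plin2, Plin5 and Pnpla2, had 66.7 and 64.7 CPM in the control libraries and 74.5 and 105.6 CPM in those labelled HuR hKO, so mouse 4 held most of the difference (log2 fold change 0.46, SE 0.175, adjusted p = 0.603 from edgeR, and 0.18 without mouse 4). Srebf1, which drives lipid synthesis under insulin, had a log2 fold change of 0.25 (adjusted p = 0.772, edgeR), and Cebpa one of 0.12 (adjusted p = 0.901, edgeR).

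Of 24 tested PPAR target and fasting genes, 16 were higher and 8 lower (median 0.16). Cyp4a14, a fatty acid hydroxylase, had 158.1 and 71.2 CPM in the control libraries and 254.7 and 321.5 CPM in the others (log2 fold change 1.33, SE 0.322, adjusted p = 0.352, edgeR's quasi-likelihood test). Its adjusted p was 0.0162 by edgeR's exact test and 0.000876 with no filter on low counts. It was 0.767 by the DESeq2 Wald test, 0.296 by limma-voom and 0.622 with the robust quasi-likelihood fit. Control mouse 1 was above control mouse 2, and the log2 fold change was 2.00 without mouse 1 and 0.87 without mouse 2. Fgf21, a fasting hormone, was counted 13 and 24 times in control and 47 and 51 times in the other mice (log2 fold change 1.10, SE 0.398, adjusted p = 0.574, edgeR). Both passed the study's threshold. Fgf21 did not pass it without control mouse 1 (log2 fold change 0.72), without mouse 3 (0.95) or without mouse 4 (1.24), and had a log2 fold change of 1.60 without control mouse 2. Fabp4 (log2 fold change 0.73), a fatty acid binding protein of adipocytes and macrophages, was highest in mouse 4, as was the sum of the 6 low adipocyte markers, whose part in it was not tested. Ucp2 (0.38) was higher and Vnn1 (-0.79) lower in both libraries labelled HuR hKO, with adjusted p-values by edgeR's quasi-likelihood test of 0.584 and 0.268. For Vnn1 the adjusted p was 0.0241 by the DESeq2 Wald test, 0.022 by edgeR's exact test and 0.0108 with no filter on low counts. By limma-voom it was 0.271. The most abundant genes of this list per kilobase, Fabp1 (-0.05) and Acaa1b (-0.22), had adjusted p-values by edgeR of 0.975 and 0.861, and were above 0 without scaling for library size (0.26 and 0.10).

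**Figure D5:**
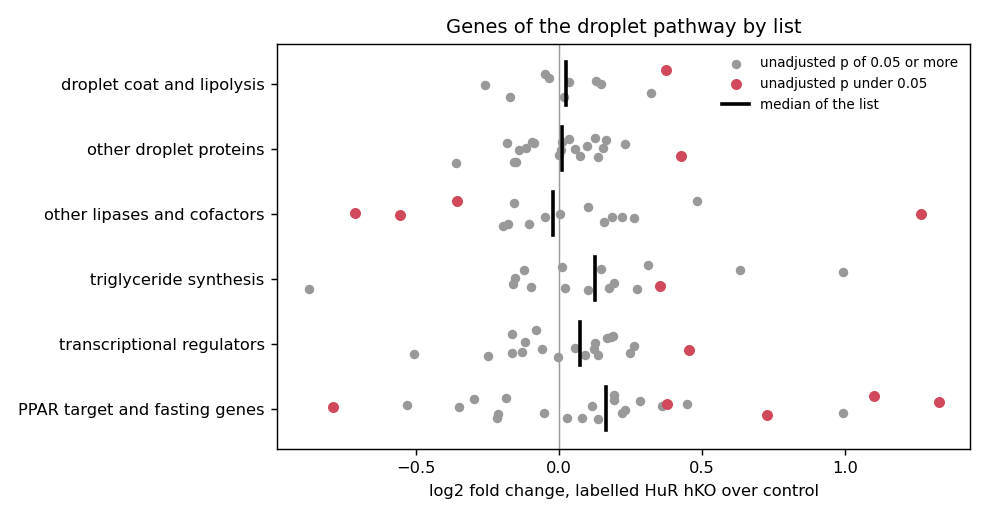
Log2 fold change, libraries labelled HuR hKO over control, of each tested gene of the 10 droplet genes and of the 5 pathway lists, with 1 point for each gene, red where the unadjusted p-value was under 0.05, and a black line at the median of each list. The medians lie between -0.02 and 0.16, and Lpl (1.27), Fgf21 (1.10) and Cyp4a14 (1.33) stand farthest to the right.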

How the data were processed

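Total liver RNA of 4 mice was sequenced from libraries made at Genewiz. The authors deposited whole-number counts of reads for each Ensembl gene and mouse, without normalization, in 1 table. The submitters' processing notes name RSEM and GRCm38 without their roles, so whether the counts are rounded estimates, and whether strand was used, is not given in the sources used here. Column names 1 to 4 matched the mice, and 0 columns were left over. Of 46603 identifiers, 46005 received a symbol. Spart was matched as Spg20, and Ldaf1 was not matched.

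Counts were filtered with edgeR 4.0.16 (R 4.3.3; minimum 10 counts, total of at least 15), scaled by TMM and compared by the quasi-likelihood test, with Benjamini-Hochberg adjustment over the 13001 genes kept. Intervals are 95% from the same fit. The tool of the study's own RNA-seq comparison is not given in the sources used here, and its threshold was a fold of 1.8 with an unadjusted p-value under 0.05. CPM per kb uses merged exons of GENCODE M21. The test was also run on counts simulated from the means and spreads of this fit, and nothing here rests on that run. A count of 0 allows up to 3 counts, between 0.159 and 0.226 CPM. Each library is labelled as a separate mouse, and p-values measure the spread between these mice. Alternatives were other scalings, filters and tests (DESeq2 1.42.0, limma 3.58.1) and each mouse left out. Ratios and figures used python 3.11.15, pandas 2.3.3, scipy 1.17.1 and matplotlib 3.10.9.

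The 10 genes and all lists were chosen with earlier results of these data known. Of the 5 pathway lists, every gene with an unadjusted p-value under 0.05 and the 2 with the highest level per kilobase were named, together with all 10 genes and Elavl1. Abhd5, Dgat1, Hsd17b11, Plin1 and the marker genes were named as partners or relatives of these, after their values were seen.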

Additional observations from a re-analysis of the deposited data

How the results depend on the processing

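With 2 mice in each group these values rest on single animals, and no paired analysis was possible because the groups share no mouse numbers. None of the 10 genes reached an adjusted p-value under 0.05 under any alternative run. With no scaling for library size, the median of all genes tested moved to 0.31, all 10 genes were higher and their median log2 fold change was 0.33. The medians were then 0.33 for droplet proteins, 0.30 for lipases, 0.45 for triglyceride synthesis, 0.38 for regulators and 0.49 for PPAR targets, with 1 synthesis gene and 4 PPAR targets past the 1.8-fold threshold. Plin5 (0.25), Cidea (0.11), Cidec (0.26), G0s2 (0.032), Acaa1b (0.10), Agpat2 (0.21), Ces1d (0.11), Fabp1 (0.26) and Gpat4 (0.16) then changed sign. The library of mouse 4 held 19715577 counts and that of mouse 3 held 13806773, beside 13032095 and 13615761 in control mice 1 and 2. Cideb, near 0, was -0.0013 with upper quartile factors, -0.0032 with no filter and -0.00032 with at least 10 counts in every library, Plin4 was -0.018 with limma-voom, 2 synthesis genes passed the threshold with no filter, and 1 PPAR target did with the DESeq2 Wald test. The cause was not tested.

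When each mouse was left out in turn, the remaining mouse of that group was assumed to vary like the other group. The genes past the threshold then numbered 0 to 1 of the 10 (G0s2, without either control mouse), 1 to 2 lipases, 0 to 2 synthesis genes, 0 to 1 regulators and 1 to 5 PPAR targets. Medians ran from -0.085 to 0.30 for the 10 genes, -0.05 to 0.10 for droplet proteins, -0.033 to 0.080 for lipases, 0.0073 to 0.19 for synthesis, 0.034 to 0.098 for regulators and -0.02 to 0.30 for PPAR targets. Between 5 and 8 of the 10 genes were higher. Log2 fold changes ran from -0.18 to 0.56 for Plin2, -0.44 to 0.37 for Plin4, -0.21 to 0.083 for Plin5, -0.53 to 0.29 for Cidea, -0.34 to 0.33 for Cidec, -0.086 to 0.15 for Pnpla2, -0.90 to 0.87 for G0s2, -0.49 to 0.10 for Acaa1b, -0.33 to 0.11 for Agpat2, -0.043 to 0.26 for Cebpa, -0.41 to 0.038 for Ces1d, -0.16 to 0.19 for Cideb and -0.34 to 0.29 for Fabp1. Hsd17b13, Dgat2 and Pnpla3 kept a value above 0 in each of these fits. Over all genes tested, the number with an adjusted p-value under 0.05 was 3 in the analysis reported, 161 with no filter, 155 with no scaling, 120 with edgeR's exact test, 85 with the DESeq2 Wald test, 8 with the robust fit and 0 to 73 when a mouse was left out. Cidea and Pnpla3 had at most 66 counts in a library, the fewest of the 10 genes.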

Other observations

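Lpin1, a phosphatidic acid phosphatase of triglyceride synthesis that also acts as a coregulator of PPARα, was chosen after its values were seen. It had 394.3 and 48.0 CPM in the control libraries and 118.6 and 122.6 CPM in those labelled HuR hKO, so the control mice differed by far more than the other mice did and enclosed both of them, as they did for G0s2. Its log2 fold change was -0.87 (SE 0.71, adjusted p = 0.826, edgeR). Its direction turned with the control mice, at 1.32 without control mouse 1 and -1.71 without control mouse 2. Each of these fits holds a single control mouse, so the spread between the control mice is left out of it. Control mouse 1 was the lowest of the 4 for G0s2 and the highest for Lpin1. Pparg, whose protein induces Cidec and Cidea, had 18.4 CPM in mouse 1, 18.7 CPM in mouse 2 and 8.39 CPM in mouse 4, with mouse 3 close to mouse 1. Mogat1, a monoacylglycerol acyltransferase induced by PPARγ, was counted 19 and 57 times in control and 56 and 138 times in the other mice. After scaling these were 1.43 and 4.26 CPM against 3.91 and 7.33 CPM, so the groups overlapped. Its log2 fold change was 0.99 (adjusted p = 0.684, edgeR), at 0.40 without control mouse 1 and 1.99 without control mouse 2. With no scaling for library size its adjusted p was 0.0191 (edgeR). In CPM, mouse 4 was thus the lowest for Pparg and the highest for Mogat1. These values were also chosen after they were seen.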
